A study of Mus musculus with 3 samples.

Results

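Potassium channels let potassium leave or enter the cell, and so set the resting membrane potential, end action potentials and recycle potassium across epithelia. The genes that encode them were followed in RNA from the incisor enamel organ, the epithelium that forms enamel and includes the ameloblasts. They were taken by gene symbol, as Kcn followed by lower-case letters and a number, which gave 84 genes of the 20937 listed. By subunit type these were 29 voltage-gated pore subunits, 8 electrically silent modifiers of voltage-gated channels, 14 inward rectifiers, 11 tandem-pore subunits, 8 calcium- or sodium-activated channels and 14 auxiliary subunits. Voltage-gated channels open on depolarization, inward rectifiers pass current near the resting potential, tandem-pore channels carry the background leak, and calcium-activated channels open when calcium rises inside the cell. Auxiliary subunits form no pore and change the gating or the surface level of the pore subunits.

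The enamel organs came from mice aged 4 weeks, males only by the methods of the study, with 1 library for each of 3 genotypes. Stim1 cKO was AmelX-iCre+; Stim1 fl/fl, Stim1 HT was AmelX-iCre+; Stim1 fl/wt, and Stim1 Ctrl was AmelX-iCre-; Stim1 fl/fl. At least 1 floxed Stim1 allele was thus present in every group, and the Cre in Stim1 cKO and Stim1 HT. Stim1 encodes the sensor of endoplasmic reticulum calcium that opens store-operated calcium channels. The amelogenin promoter drives the Cre in ameloblasts, and other cells of the dissected tissue keep Stim1. Stim1 HT and Stim1 Ctrl together were the controls, and the question was how gene expression differed in the enamel organ after loss of Stim1. No genotype had a replicate.

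Total counts ranged from 20216507 to 28265960 per library. Counts were scaled for library size and composition with TMM factors and are given as CPM, counts relative to the library size. The detection limit, set at 3 counts, corresponded to 0.117 to 0.152 CPM, and the smallest count in the table was 1. Values of a gene in the libraries are given in the order Stim1 cKO, Stim1 HT, Stim1 Ctrl throughout. The targeted gene Stim1 was at 72.8, 129 and 186 CPM. Of 4 secretory ameloblast markers, 3 were over 2-fold below both controls in Stim1 cKO, and the markers summed to 3584, 31173 and 23113 CPM. Photoreceptor markers summed to 1034, 12.9 and 11.7 CPM. Xist, the RNA of the inactive X chromosome in females, had 10897, 36 and 1 counts, and the Y-linked gene Ddx3y was at 40.9, 80.6 and 80.0 CPM, so the Stim1 cKO library held Xist RNA that males alone would not give. The part of these differences in the values of the channel genes was not tested. In RNA of a whole tissue, fewer cells of a type and less RNA per cell cannot be told apart.

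Most potassium channel genes had higher values in Stim1 cKO than in both controls. Of the 82 genes that passed the filter on low counts, 34 (41.5%) were over 2-fold higher in the Stim1 cKO library than in either control, against 19.1% of all 18702 genes tested. In the other direction, 4 genes, or 4.88%, were over 2-fold lower than in both controls, against 8.23% of all genes. Kcnj8, Kcnj11 and Kcnj12 were among them, and the number became 7 when Stim1 Ctrl was the lone control and 8 when Stim1 HT was. At any size of difference, 59 channel genes were above both controls (background 43.6%), 15 were below both (background 42.1%) and 8 lay between them. The median log2 fold change against the grouped controls was 0.98 for the channel genes and -0.01 for all genes tested.

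No channel gene passed the edgeR quasi-likelihood test at an adjusted p under 0.01 and a fold change over 2, which 14 genes in all (0.0749% higher, 0% lower) did. At an adjusted p under 0.05 and a fold change over 2, edgeR called 14 channel genes higher (17.1%, background 6.8%) and 1 lower (1.22%, background 2.88%). Without the filter on low counts, at an adjusted p under 0.01, it called 5 of 84 higher (5.95%, background 3.28%) and 1 lower (1.19%, background 1.05%). At an unadjusted p under 0.05, edgeR gave 30 channel genes higher (background 18.5%) and 5 lower (background 13.4%). The 14 and the 30 higher genes both include Kcne2. It reached 10 counts only in Stim1 cKO, so with the filter it could enter the test only by being higher there. Genes of that kind were not taken out of these counts or of their backgrounds. With DESeq2, at an adjusted p under 0.01 and a fold change over 2, 8 channel genes rose, or 9.76% against 5.92% of all genes, and 2 fell, or 2.44% against 4.71%. Kcnk2, Kcnj16, Kcnq3, Kcnb2, Kcnd2 and Kcnh7 were among those that rose, and Kcnj12 among those that fell. For both tests the only spread between libraries of a group was that between the controls.

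The ratios were also counted by depth. Of the 65 channel genes averaging 50 counts or more, 24 were over 2-fold higher than both controls, or 36.9%, against 14.3% of all genes at that depth, and 4 (6.15%) were over 2-fold lower, against 8.36%. Of the 17 averaging fewer, 10 were over 2-fold higher, or 58.8%, against 38.8%. Among these 10, Kcne2, Kcnh5, Kcnj9, Kcnk9 and Kcns2 reached 10 counts only in Stim1 cKO and so could enter the test only by being higher there. Genes of that kind were not taken out of the 38.8% either, so both shares at low depth were in part set by the filter. Without genes of that kind, 29 of 77 channel genes (37.7%) and 2604 of 17539 genes (14.8%) were over 2-fold higher. For 26 of the 34 higher genes the 95% interval of the ratio to the nearer control, which covers counting error only, lay wholly above 2. The same share was not taken for all genes over 2-fold higher, so this count does not set the channel genes apart.

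**Figure D1:**
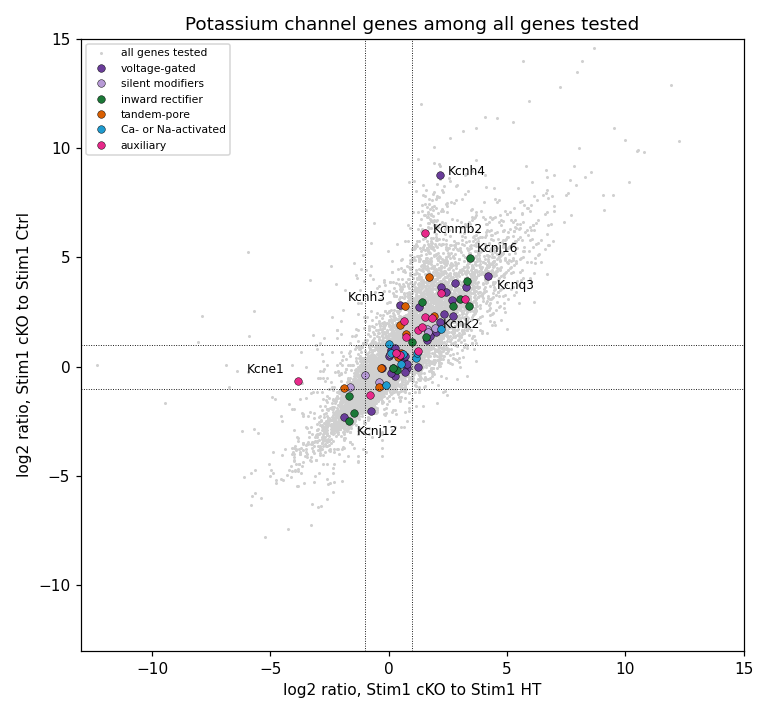
Log2 ratio of TMM-scaled CPM in Stim1 cKO to Stim1 HT (horizontal axis) and to Stim1 Ctrl (vertical axis) for all 18702 genes tested (grey) and 82 potassium channel genes (coloured by subunit type). Dotted lines mark a 2-fold difference, with 34 channel genes in the upper right corner beyond both lines and 4 in the lower left corner.

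Levels were compared between genes per kilobase of annotated exon. Kcnk1, a tandem-pore channel of many epithelia, had the highest level of any channel gene in both controls, and was at 17.8, 22.6 and 18.4 CPM per kilobase. In Stim1 cKO it ranked 2, after Kcnk2 at 18.3 CPM per kilobase. Kcnj16 stood at rank 3 in Stim1 cKO, at rank 35 in Stim1 HT and at rank 49 in Stim1 Ctrl. Kcnj8 and Kcne4 were among the 5 highest in each control, with 8.66 to 10.8 and 6.25 to 8.63 CPM per kilobase, and at 3.44 and 3.58 in Stim1 cKO. The order of the most abundant channel genes thus differed between Stim1 cKO and the controls, while Kcnk1, Kcnc4 and Kcnj2 were within the 6 highest in Stim1 cKO and in Stim1 HT.

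**Figure D2:**
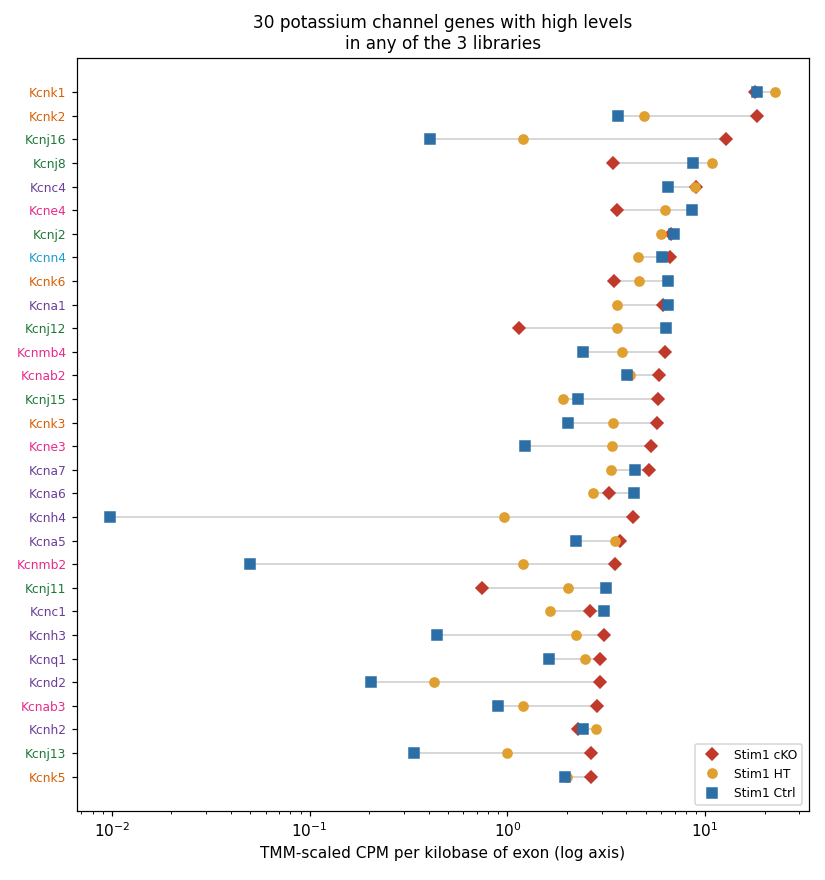
TMM-scaled CPM per kilobase of exon on a log axis for 30 potassium channel genes with the highest levels in any library among the 78 shown, with 1 point per library. Kcnk1 stays near 20 in all 3 libraries (17.8 to 22.6), whereas Kcnk2 and Kcnj16 stand far to the right in Stim1 cKO, and Kcnj8 and Kcnj12 to the left.

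Among the 29 voltage-gated pore subunits, 14 were over 2-fold higher than both controls (background 19.1%) and 1 was over 2-fold lower (background 8.23%). Their median log2 fold change was 1.21. These backgrounds apply to every count by subunit type, subfamily or tissue below. Such counts include Kcne2, Kcnh5, Kcnj9, Kcnk9 and Kcns2, which could enter the test only by being higher in Stim1 cKO. Kcnq3 encodes a subunit of the M-current channel, which damps repetitive firing of neurons. Kcnq3 was at 34.2, 1.88 and 1.90 CPM. Its ratio to the nearer control was 18.0 (95% counting interval 13.5 to 24.5), and its log2 fold change was 4.17 ± 0.35 (SE, edgeR adjusted p = 0.0136, DESeq2 adjusted p = 1.7e-12). The controls differed by less than counting error, and Stim1 cKO stood far above them.

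Of the 5 Kcnq genes, 2 were over 2-fold higher than both controls (background 19.1%) and 1 was over 2-fold lower (background 8.23%). Kcnq1, which repolarizes the heart and recycles potassium in epithelia, was at 12.0, 10.1 and 6.68 CPM. Kcnq5, a neuronal and muscle channel, was at 7.68, 4.72 and 5.52 CPM. In both, Stim1 cKO stood above the controls by less than 2-fold of the nearer one, against 18.0-fold for Kcnq3.

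The Kcnd and Kcnc genes also differed among themselves. Kcnd2, which carries the rapidly inactivating A-type current of dendrites, was at 15.1, 2.18 and 1.05 CPM. Kcnd3, known from heart muscle, was at 9.96, 2.94 and 3.73 CPM, and Kcnd1 was at 4.38, 4.11 and 5.28 CPM. Kcnb2, a delayed rectifier of neurons, was at 15.1, 2.28 and 3.03 CPM. Of the Kcnc genes, which let neurons fire at high rates, Kcnc2 was at 5.54, 1.22 and 1.32 CPM. Kcnc1 was at 24.8, 15.6 and 29.2 CPM, so that Stim1 cKO lay between the controls, and Kcnc4, with the highest level of the subfamily per kilobase in the controls, was at 33.1, 32.7 and 23.8 CPM.

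The Kcnh genes, which include the ether-a-go-go and erg channels, had a median log2 fold change of 2.31, with 5 of 8 over 2-fold higher (background 19.1%). Kcnh7, an erg channel of the nervous system, was at 13.8, 1.42 and 1.09 CPM. Its log2 fold change was 3.45 ± 0.49 (SE, edgeR adjusted p = 0.025, DESeq2 adjusted p = 8.22e-05), and some of its exon bases lie under Gca on the opposite strand. Kcnh2, the erg channel that repolarizes the heart, was at 11.1, 13.6 and 11.7 CPM, with all 3 libraries close together. Kcnh5, a neuronal channel, had 20 counts in Stim1 cKO against 3 and 2 in the controls, with an interval to the nearer control of 1.61 to 28.5. In 4 of the 8 Kcnh genes Stim1 HT was over 2-fold above Stim1 Ctrl, against 9.82% of all genes tested, so the controls were not alike for those 4. Kcnh3, an ether-a-go-go-like channel of the forebrain, had 428, 252 and 65 counts. Kcnh4, named here after its values were seen, had 411, 75 and 1 counts, and its ratio to Stim1 HT was 4.46 (95% counting interval 3.48 to 5.78).

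Of the Kcna genes, 1 of 7 was over 2-fold higher (background 19.1%), with a median log2 fold change of 0.38. Kcna1 and Kcna2, which line the juxtaparanodes of myelinated axons, were at 29.4 and 3.47 CPM in Stim1 cKO, at 17.1 and 1.47 CPM in Stim1 HT and at 31.0 and 3.54 CPM in Stim1 Ctrl. For both, Stim1 cKO lay between the controls. Kcna4 was the gene of the subfamily that exceeded both controls by 2-fold, with 59, 12 and 21 counts and an interval to the nearer control of 1.79 to 5.18. Kcna3, the main voltage-gated potassium channel of T lymphocytes, had 11, 15 and 48 counts, and its interval against Stim1 HT, 0.248 to 1.39, held 1.

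The 8 electrically silent modifiers form channels only together with Kcnb subunits. Of these, 3 were over 2-fold higher (background 19.1%), Kcng1, Kcns2 and Kcnv1, and none was over 2-fold lower than both controls (background 8.23%). Kcnv1 was at 4.34, 1.37 and 1.44 CPM. Kcns1 and Kcnf1, with the highest control levels, were at 2.73, 5.53 and 3.54 CPM and at 4.83, 6.40 and 7.89 CPM. Kcng2 was at 1.03, 3.25 and 1.98 CPM, below both controls.

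The 14 auxiliary subunits held 7 genes over 2-fold higher (background 19.1%) and none over 2-fold lower (background 8.23%), with a median log2 fold change of 1.31. The Kcnip genes encode calcium-binding partners of the Kcnd channels, and 3 of 4 were over 2-fold higher. Kcnip1 was at 7.56, 1.62 and 0.738 CPM, with a log2 fold change of 2.68 ± 0.64 (SE, edgeR adjusted p = 0.0638). Kcnip2, the partner of Kcnd channels in heart muscle, was at 8.43, 2.94 and 1.75 CPM. The pore subunits Kcnd2 and Kcnd3 and the partners Kcnip1, Kcnip2 and Kcnip4 were thus each over 2-fold above both controls.

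The Kcne genes, short single-span subunits that change the gating of Kcnq1 and other pores, differed among themselves. Kcne2, needed for potassium recycling in the acid-secreting stomach, had 57, 5 and 7 counts (interval to the nearer control 3.94 to 22.5). Kcne3, which holds Kcnq1 open in intestine and airway, was at 9.42, 6.04 and 2.18 CPM. Kcne1, which with Kcnq1 secretes potassium into the endolymph of the inner ear, had 6, 69 and 10 counts, so that Stim1 HT stood alone, and the interval of Stim1 cKO to Stim1 Ctrl, 0.191 to 1.94, held 1. Kcne4, an inhibitory subunit, had the highest control level of this group and was at 9.50, 16.6 and 22.9 CPM, with a log2 fold change of -1.06 ± 0.38 (SE, edgeR adjusted p = 0.132). Of the beta subunits of the large-conductance calcium-activated channel, Kcnmb1, known from smooth muscle, was at 4.75, 1.32 and 1.01 CPM. Kcnmb4, known from neurons, was at 20.8, 12.6 and 8.01 CPM. Kcnmb2, named here after its values were seen, had 264, 74 and 4 counts, which separated Stim1 HT from Stim1 Ctrl more than Stim1 cKO from Stim1 HT.

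Inward rectifiers differed from the controls in both directions. Of the 13 tested, 7 were over 2-fold higher than both controls (background 19.1%) and 3 were over 2-fold lower (background 8.23%). Kcnj3 was higher than both, and Kcnj2 and Kcnj10 lay between the controls. The windows of 250 bases before the start site, from RefSeq on GRCm38.p6, are shown for a pair of higher and a pair of lower genes with a single start site in that table. Each runs 5′ to 3′ on the strand of its gene and overlaps 0 annotated exons of GENCODE M21. For Kcnj12 the annotations disagree, since GENCODE M21 starts the gene upstream, at position 61022564 of chromosome 11, and the window shown precedes a later exon of that model. Capitals mark TATAAA, the core of the TATA box, or GGAAA, the core bound by NFAT factors, on either strand.
Kcnj15, chr16:95257308-95257557, plus strand: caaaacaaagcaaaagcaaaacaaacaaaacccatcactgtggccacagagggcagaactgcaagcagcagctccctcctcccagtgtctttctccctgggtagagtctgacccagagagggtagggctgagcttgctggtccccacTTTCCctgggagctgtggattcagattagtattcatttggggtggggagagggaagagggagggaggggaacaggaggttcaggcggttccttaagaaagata
Kcnj9, chr1:172329323-172329572, minus strand: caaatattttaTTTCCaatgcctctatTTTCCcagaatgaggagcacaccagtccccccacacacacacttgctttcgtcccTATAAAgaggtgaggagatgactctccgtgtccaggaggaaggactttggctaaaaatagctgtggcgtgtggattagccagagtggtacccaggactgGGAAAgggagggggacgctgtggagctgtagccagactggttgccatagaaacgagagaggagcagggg
Kcnj8, chr6:142571615-142571864, minus strand: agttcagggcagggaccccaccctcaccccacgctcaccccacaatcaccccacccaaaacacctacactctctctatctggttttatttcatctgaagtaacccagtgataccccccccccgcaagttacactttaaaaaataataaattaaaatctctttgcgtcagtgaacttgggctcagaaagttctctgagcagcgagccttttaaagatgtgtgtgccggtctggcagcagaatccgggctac
Kcnj12, chr11:61065554-61065803, plus strand: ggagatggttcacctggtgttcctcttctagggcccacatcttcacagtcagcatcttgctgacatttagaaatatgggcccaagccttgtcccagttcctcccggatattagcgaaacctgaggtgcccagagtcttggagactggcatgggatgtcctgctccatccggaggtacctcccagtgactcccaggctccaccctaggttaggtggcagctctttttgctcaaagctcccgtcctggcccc

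Of the 4 windows, the one of Kcnj9 held TATAAA, 168 bases before the start site, and GGAAA 3 times, and that of Kcnj15 held GGAAA once. Neither motif was in the windows of Kcnj8 and Kcnj12. These were the only 2 windows found for genes over 2-fold lower, too few to compare with those of higher genes. Over the 32851 windows of the whole table, 12.4% held TATAAA and 55.6% held GGAAA on either strand. Among 82 windows found for 58 of the channel genes tested, 3.66% held TATAAA, in Kcnj9, Kcnj13 and Kcnj16, and 51.2% held GGAAA. TTCAGCACC, one part of the site bound by the neuronal gene repressor REST, was in 0.301% of all windows and in that of Kcnh6 among the channel genes. The letters of a motif in a window do not show that a factor binds there.

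The higher inward rectifiers were of several kinds. Kcnj16, which pairs with Kcnj10 or Kcnj15 in kidney and glia and makes their channels sensitive to pH, had 1218, 93 and 41 counts. Its ratio to the nearer control was 10.7 (95% counting interval 8.63 to 13.3), and its log2 fold change was 4.01 ± 0.62 (SE, edgeR adjusted p = 0.0287, DESeq2 adjusted p = 7.52e-08). Kcnj15, an epithelial channel of kidney and stomach, was at 36.5, 12.1 and 14.4 CPM. Its log2 fold change was 1.46 ± 0.28 (SE, edgeR adjusted p = 0.0409, DESeq2 adjusted p = 0.0116). Kcnj10, the third gene of these pairings and the main potassium channel of glia, was at 11.4, 8.88 and 12.8 CPM, with Stim1 cKO between the controls.

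The remaining higher genes were at lower counts. Kcnj9 and Kcnj5 encode subunits of the G protein-gated channels of neurons and heart. Kcnj9 had 72, 6 and 5 counts (interval 4.27 to 27.5), and Kcnj5 had 176, 22 and 27. Kcnj3, their usual partner, was at 6.44, 3.25 and 2.91 CPM, and Kcnj6 had 7, 3 and 2 counts, too few to be tested. Kcnj4 and Kcnj14, strong rectifiers of the same group as Kcnj2, had 104 and 120 counts in Stim1 cKO against 8 to 16 in the controls. Kcnj13, best known from retinal pigment epithelium, had 81, 25 and 11 counts (interval 1.67 to 4.31). Of its 1270 exon bases, 623 are shared with Gigyf2 on the opposite strand. Retinal pigment epithelium markers summed to 22.2, 6.09 and 6.22 CPM, with 2 of 5 over 2-fold higher.

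The lower inward rectifiers were those of muscle and vessels. Kcnj8 encodes the pore of the ATP-sensitive channel of vascular smooth muscle and pericytes. It was at 8.76, 27.6 and 22.1 CPM, with a log2 fold change of -1.50 ± 0.33 (SE, edgeR adjusted p = 0.0543, DESeq2 adjusted p = 0.0112). Kcnj11, the pore of that channel in skeletal muscle and pancreatic beta cells, had 66, 147 and 300 counts. Kcnj12, a strong rectifier of muscle, had 76, 195 and 448 counts, with a log2 fold change of -2.12 ± 0.55 (SE, edgeR adjusted p = 0.0736, DESeq2 adjusted p = 0.00989). In all 3 genes both controls stood over 2-fold above Stim1 cKO, and the controls differed from each other by more than counting error. Kcnj2, the other strong rectifier of muscle, was at 36.6, 32.4 and 38.0 CPM, with no such gap. Skeletal muscle markers were also over 2-fold lower in 8 of 9, and smooth muscle and pericyte markers in 0 of 6.

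**Figure D3:**
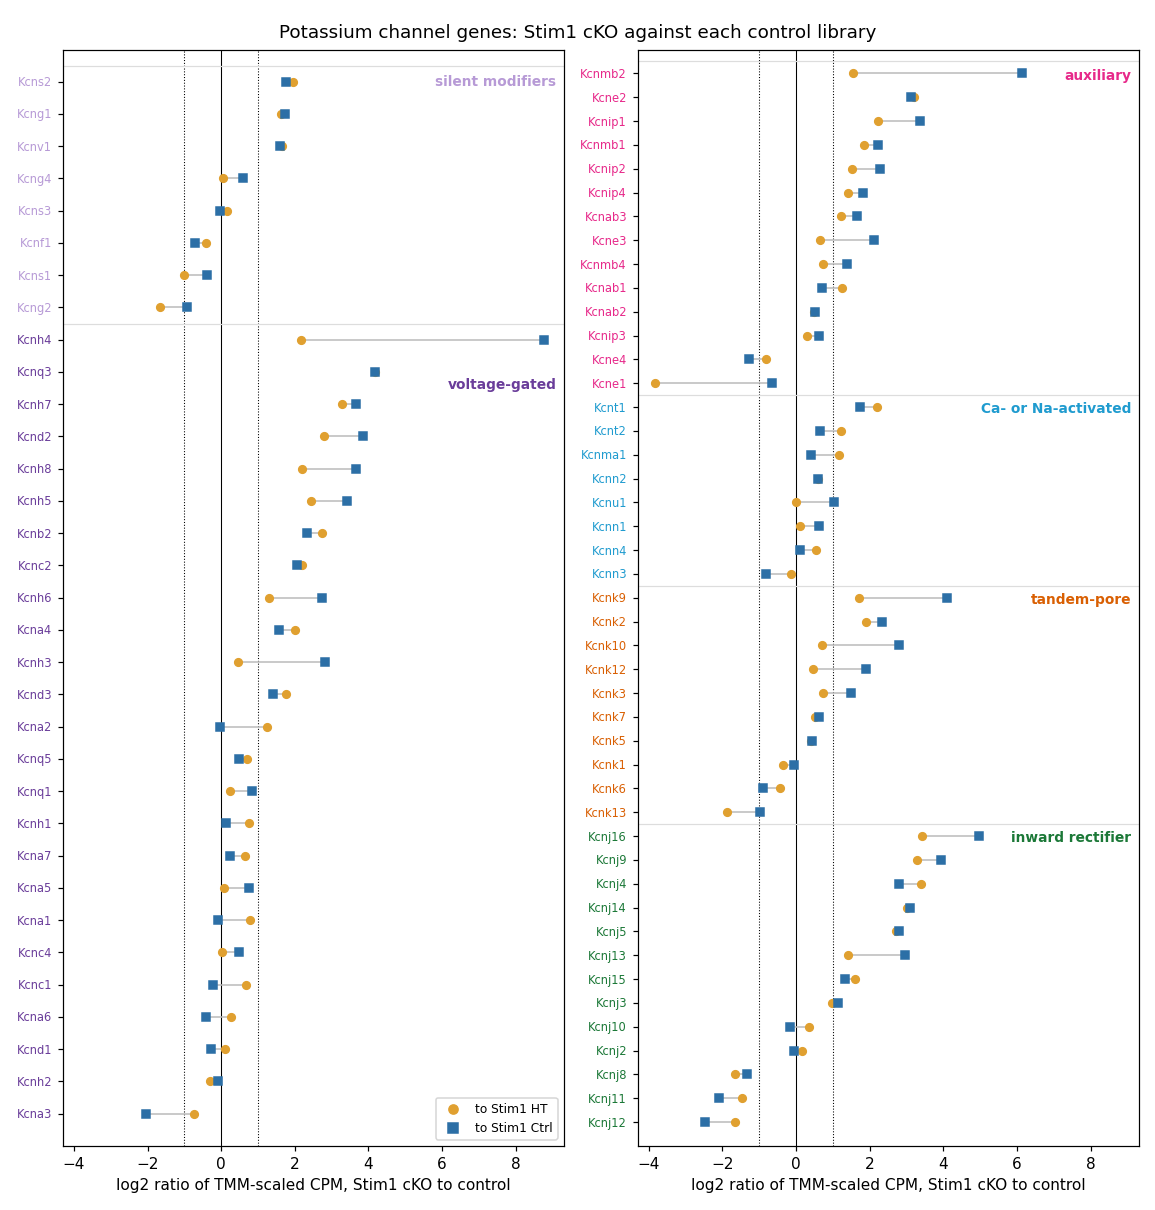
Log2 ratio of TMM-scaled CPM in Stim1 cKO to Stim1 HT (circles) and to Stim1 Ctrl (squares) for 78 of the 82 potassium channel genes tested, grouped by subunit type, with grey lines joining the ratios of a gene. Dotted lines mark a 2-fold difference. A long grey line, as for Kcnh4, Kcnmb2 and Kcne1, shows a gene in which the controls were far apart.

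Of the 10 tandem-pore genes tested, 2 were over 2-fold higher than both controls, Kcnk2 and Kcnk9, which is near the background of 19.1%. None was over 2-fold lower (background 8.23%). Kcnk2, a leak channel opened by stretch and fatty acids, had 2192, 480 and 459 counts, the highest count of any channel gene in Stim1 cKO. Its ratio to the nearer control was 3.72 (95% counting interval 3.37 to 4.11), and its log2 fold change was 2.10 ± 0.28 (SE, edgeR adjusted p = 0.0224, DESeq2 adjusted p = 4.77e-06). Part of its exons lie under A430027H14Rik on the opposite strand. Kcnk9, a leak channel of the cerebellum closed by acid outside the cell, had 16, 4 and 1 counts, which leaves its ratio to the nearer control between 1.05 and 13.4. The epithelial members were within 2-fold of both controls, with Kcnk1 at 39.9, 50.6 and 41.0 CPM, Kcnk6 at 14.4, 19.3 and 27.0 CPM and Kcnk5 at 8.96, 6.80 and 6.68 CPM. Kcnk13, a channel of microglia, had 27, 81 and 57 counts and lay below both controls.

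Of the 8 calcium- and sodium-activated channels, 1 was over 2-fold higher than both controls (background 19.1%). It was Kcnt1, a sodium-activated channel of neurons, at 9.79, 2.13 and 2.95 CPM. Kcnn4, the calcium-activated channel of secretory epithelia, red cells and lymphocytes, had the highest level of this type and was at 33.8, 23.4 and 31.1 CPM. Its log2 fold change was 0.31 ± 0.28 (SE, edgeR adjusted p = 0.479). Kcnma1, the pore of the large-conductance channel, was at 27.6, 12.3 and 20.7 CPM. For both genes the gap between Stim1 cKO and Stim1 Ctrl was smaller than that between the controls.

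Grouped by the tissue in which a gene is best known, the channel genes gave these counts. Among all genes tested, 19.1% were over 2-fold higher than both controls and 8.23% were over 2-fold lower. Of the 27 neuronal channel genes tested, 16 were over 2-fold higher than both controls, none was over 2-fold lower, and the median log2 fold change was 1.62. The 16 include Kcnh5, Kcnj9 and Kcnk9, which could enter the test only by being higher in Stim1 cKO. The 29 listed summed to 327, 128 and 146 CPM. Of the 10 muscle genes, 3 were over 2-fold higher (Kcnd3, Kcnip2 and Kcnmb1) and 3 were over 2-fold lower (Kcnj8, Kcnj11 and Kcnj12), with sums of 129, 135 and 135 CPM. Of the 10 epithelial genes, 3 were over 2-fold higher (Kcne2, Kcnj15 and Kcnj16) and none was over 2-fold lower, with a median of 0.46. Kcne2 could enter the test only by being higher in Stim1 cKO. Of the 2 retina and glia genes tested, 1 was over 2-fold higher, Kcnj13. The 33 genes known from several tissues or not listed had 11 over 2-fold higher, with Kcns2 among them, and 1 over 2-fold lower, with a median of 0.74. The lists share no gene and were written with results of these libraries known, so their counts are a description.

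Markers of other cell types differed between the same libraries. Of 10 neuron markers, 8 were over 2-fold above both controls in Stim1 cKO, and the list summed to 1105, 309 and 255 CPM. The exceptions were the neurofilament genes Nefl, for which Stim1 cKO lay between the controls, and Nefm, at 41.4, 42.7 and 71.3 CPM. All 7 photoreceptor markers listed were over 2-fold higher. Of the 9 skeletal muscle markers, 8 were over 2-fold lower, with sums of 4449, 23523 and 32123 CPM. None of 6 smooth muscle and pericyte markers differed over 2-fold from both controls, with sums of 714, 806 and 1082 CPM. Glial markers (826, 1351 and 1828 CPM) were higher in 1 of 6 and lower in 1, and immune markers (41.7, 51.7 and 51.1 CPM) lower in 1 of 4. Lens markers, with 2 of the 5 chosen in the table, were both over 2-fold higher (184, 9.90 and 9.56 CPM), and fibroblast markers were lower in 2 of 5 (34594, 47429 and 74243 CPM). Exocrine gland markers were higher in 5 of 6 (1045, 143 and 26.0 CPM), and maturation ameloblast markers in 3 of 6 (917, 389 and 174 CPM). Single genes made up most of the exocrine gland sums. Obp2a gave 939 CPM in Stim1 cKO, and Bpifa2, which was below both controls in Stim1 cKO, gave 119 CPM in Stim1 HT. Smr3a, counted among the 5, had 10, 3 and 2 counts and did not pass the filter. The part of these cell types in the values of the channel genes was not tested.

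**Figure D4:**
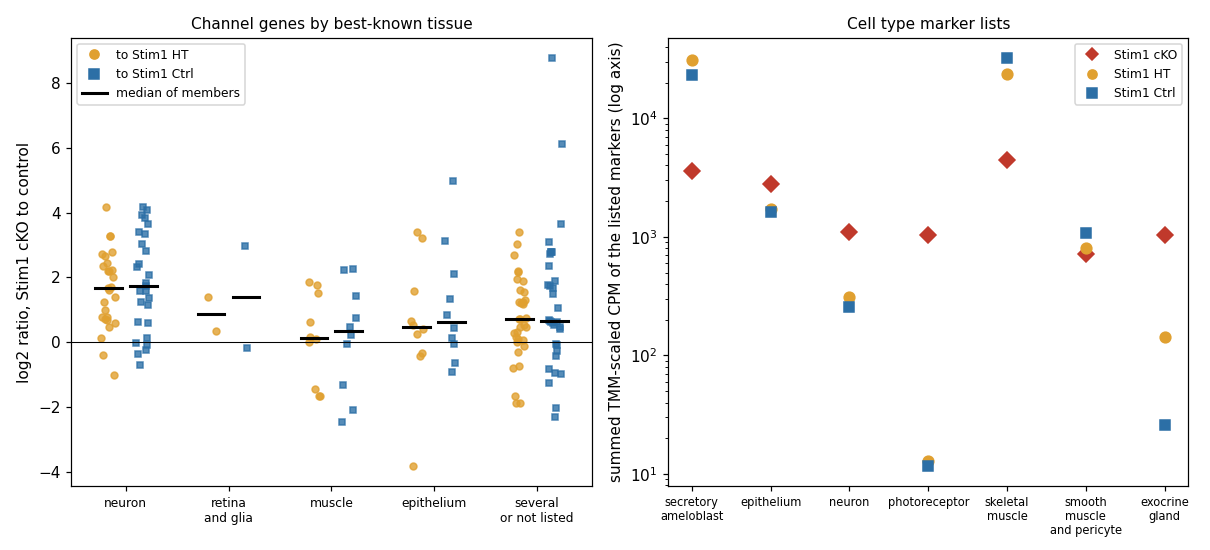
Left, log2 ratio of Stim1 cKO to each control for the channel genes tested, by best-known tissue, with bars at the median of the genes. Right, summed TMM-scaled CPM of 7 cell type marker lists in each library on a log axis. Neuronal channel genes lie mostly above 0 against both controls, and neuron and photoreceptor markers are highest in Stim1 cKO, where skeletal muscle and secretory ameloblast markers are lowest.

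Channel genes that lie next to each other did not share their differences in several places of the genome (GRCm38). The pairs given are examples, and neighbouring genes in general were not counted for comparison. On chromosome 11, Kcnj16 was over 2-fold higher, and Kcnj2, 38.2 kb away, was between the controls. On chromosome 1, Kcnj9 was over 2-fold higher, and Kcnj10, 11.9 kb away, was between the controls. On chromosome 16, Kcne2 was over 2-fold higher, and Kcne1, 47.9 kb away, had a value below both controls, with an interval that held 1 against Stim1 Ctrl. Kcnip1 and Kcnmb1, whose loci overlap on chromosome 11, were both over 2-fold higher.

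Exon bases were shared with another annotated gene in 26 of the 82 genes tested and in 10 of the 34 that were over 2-fold higher. Whether reads were counted by strand is not given in the sources used here, so the reads of such genes and of their antisense partners may not be told apart. Kcnq1 shares 121 bases with its antisense transcript Kcnq1ot1, which is no channel gene and was at 391, 35.6 and 36.3 CPM.

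The transporters and partners that work with these channels were followed in the same way. Of 31 other potassium transport genes tested, 11 were over 2-fold higher than both controls (35.5%, background 19.1%) and 2 were over 2-fold lower (6.45%, background 8.23%). The edgeR test called none of them (11 higher and 2 lower at an unadjusted p under 0.05, backgrounds 18.5% and 13.4%), and with DESeq2 7 rose and 1 fell, against 5.92% and 4.71% of all genes. Of the 7 that rose, 4 were among the 12 genes tested for the sodium-potassium pump and its regulators, and 2 were among 6 cation-chloride cotransporters. The genes named next are examples of the calls. Slc12a5, the neuronal transporter that moves chloride out of the cell with potassium, was at 50.3, 2.44 and 1.55 CPM. Dpp10, a membrane partner of the Kcnd channels, was at 14.3, 2.39 and 1.40 CPM. Abcc9, the sulphonylurea receptor that joins Kcnj8 in vessels, was at 28.9, 65.5 and 111 CPM and fell with DESeq2 (adjusted p = 0.00308). The pore Kcnj8 and its partner Abcc9 were thus both over 2-fold below the controls.

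The controls themselves differed. Of the 82 channel genes, 15 were over 2-fold higher in Stim1 HT than in Stim1 Ctrl (18.3%, against 9.82% of all genes), and 2 were over 2-fold lower (2.44%, against 3.64%). Among genes averaging 50 counts or more, 9 of 65 were higher in Stim1 HT (13.8%, against 6.26%) and 1 was lower (1.54%, against 1.9%). With 1 library each, this distance cannot be split into genotype and variation between mice. Kcnh4, Kcnmb2 and Kcne1 had the widest gaps, with ratios of Stim1 HT to Stim1 Ctrl of 98.0 (95% counting interval 17.1 to 3921), 24.2 (9.05 to 91.0) and 9.01 (4.62 to 19.6). Stim1 HT was above Stim1 Ctrl in 22 of the 34 genes that were over 2-fold higher in Stim1 cKO, or 64.7%, against 68.7% of all genes over 2-fold higher there. In 22 of the 34 the counting interval of Stim1 HT to Stim1 Ctrl held 1, against 35 of the 82 channel genes tested (42.7%). The share over all genes was not taken, so this count is a description.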

How the data were processed

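RNA-seq of the whole incisor enamel organ was analysed in 3 libraries, 1 per genotype. Per the labels, libraries were made with a SMARTER kit, whereas the methods of the study name a directional NEBNext kit with poly-A enrichment. The submitters' processing notes name FastQC, STAR and DESeq2. Versions, genome build, annotation, counting tool and strand setting are not given in the sources used here. The authors deposited raw counts per gene symbol, without normalization. Each of the 20937 genes has a count of at least 1 in every library, so genes without a read in a library are not listed.

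The Stim1 cKO library was set against both control libraries as 1 group in edgeR 4.0.16 under R 4.3.3 (TMM, filterByExpr, quasi-likelihood test, Benjamini-Hochberg adjustment over 18702 genes). The threshold was an adjusted p under 0.01 and a fold change over 2. The common dispersion was 0.106, with 1 residual degree of freedom and 4.15 prior degrees of freedom. DESeq2 1.42.0 was an alternative. The others were RLE and library size scaling, an adjusted p under 0.05, no filter, a minimum mean of 50 counts, 1 CPM added, and leaving out either control. The tests were tested on simulated data in which the controls had the same means, unlike the real ones. Of 200 genes changed by a log2 fold change of 2, edgeR called 21 and DESeq2 46. At a log2 fold change of 3 each called 163, and at 5 they called 200 and 190. Thus a missing call by edgeR at these thresholds does not show that a gene was unchanged. With 1 library per genotype, p-values set the distance of Stim1 cKO from the controls against a spread taken from the controls alone and moderated over all genes, and there is no replicate check. Ratios between libraries were taken on TMM-scaled CPM, with 95% exact counting intervals. PCR reads are not independent molecules, so these intervals and the limit of 3 counts cover counting error only.

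Exon lengths, positions and overlaps came from GENCODE M21 on GRCm38, which holds 20719 of the symbols. Genes were named if they were in the 8 largest ratios to the nearer control in each direction (mean of at least 20 counts), called by a test, the 2 highest per kilobase in the controls in a subunit type, or in a tissue list. Other potassium transport genes were named if a test called them. Genes outside this rule were chosen after their values were seen, among them Kcnh4, Kcnmb2, Kcnj5, Kcnq1ot1 and, in part, genes named as members of a subfamily. The members, gene lists and tests were chosen with earlier results of these data known. Python 3.11.15 with pandas 2.3.3, scipy 1.17.1 and matplotlib 3.10.9 was used. Some genes that this rule names are counted but not reported here by name.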

Additional observations from a re-analysis of the deposited data

How the results depend on the processing

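Of the channel genes, 0 were called by edgeR with TMM, RLE or library size scaling or at a mean of 50 counts or more, against 10 with DESeq2, 6 without a filter and 15 at an adjusted p under 0.05. The cause was not tested, other than the looser threshold of the last. Genes over 2-fold higher than both controls numbered 34, and 28 with 1 CPM added. With either control left out they numbered 38 to 42, and genes over 2-fold lower numbered 7 to 8 against 4, since a gene then had to pass against a lone control. Genes over 2-fold apart between the controls fell from 17 to 10 at a mean of 50 counts or more, where fewer genes were tested, and to 6 with 1 CPM added, which shrinks ratios at low counts. Library size scaling shifted the median log2 fold change of all genes to 0.25, and under it Kcna6 (0.15), Kcnd1 (0.16), Kcnh2 (0.062) and Kcnk1 (0.052) turned from lower to higher, all below that shift. The sign of 8 genes hung on which control was left out. Their log2 fold changes without Stim1 HT and without Stim1 Ctrl were -0.093 and 0.78 for Kcna1 and -0.042 and 1.23 for Kcna2. In the same order they were -0.44 and 0.27 for Kcna6, -0.25 and 0.67 for Kcnc1 and -0.29 and 0.091 for Kcnd1. For the remaining genes they were -0.070 and 0.17 for Kcnj2, -0.18 and 0.36 for Kcnj10 and -0.060 and 0.17 for Kcns3. No paired analysis was possible because each genotype has 1 library. Depth limits the genes with few counts, and intervals are given for some of them.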

Other observations

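Kcne1l, an auxiliary subunit of the Kcne group whose symbol ends in a letter and so falls outside the channel genes above, had 213, 2628 and 3072 counts in the order Stim1 cKO, Stim1 HT, Stim1 Ctrl. In CPM these were 8.80, 133 and 119, so the controls were close together and Stim1 cKO was far below. Its log2 fold change was -3.84 ± 0.32 (SE, edgeR adjusted p = 0.0135, DESeq2 adjusted p = 4.32e-26). Kcnrg, a regulator of voltage-gated channels, had 253, 78 and 4 counts, with the controls far apart. Both were chosen after their values were seen.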
